A study of Saccharomyces cerevisiae with 40 samples.

Results

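The glycogen metabolism genes of *Saccharomyces cerevisiae* were followed through every kind of RNA measured in the series. The group was chosen by name, as the 9 genes *GSY1*, *GSY2*, *GPH1*, *GDB1*, *GLC3*, *GLG1*, *GLG2*, *PGM2* and *UGP1*. All 9 were listed among the 7127 genes of the total RNA and labeled RNA tables and among the 6613 genes of the ribosome profiling tables, and all 9 passed the count filter of every comparison. The strains were *def1Δ* cells (DEF1 knockout), *dhh1Δ* cells and WT cells, all of the W303 background and grown to log phase in rich medium with adenine. Steady-state total RNA came from 2 *def1Δ* and 2 WT libraries. In RATE-Seq, cells were fed 4-thiouracil (4tU) and labeled RNA was pulled down at 5 times from 6 to 90 min, with 2 libraries per strain at 6, 9, 24 and 90 min and 1 per strain at 12 min. Ribosome profiling gave input RNA in 3 libraries each of *def1Δ*, *dhh1Δ* and WT cells, and ribosome footprints in 3 barcoded columns per strain of 1 pooled library. Def1 is a regulator of RNA polymerase II that is also found in the cytoplasm, and Dhh1 is a helicase that acts in mRNA decapping.

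Glycogen is the branched glucose store that yeast builds when growth slows or stress sets in, and burns again later. Glucose 6-phosphate is turned to glucose 1-phosphate and then to UDP-glucose, a self-glucosylating primer starts the chain, a synthase lengthens it and a branching enzyme branches it. Phosphorylase and the debranching enzyme take it apart. Many of these genes are known to respond to Msn2 and Msn4, activators that bind the stress response element and are held in check by protein kinase A while glucose is plentiful.

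Gene positions below follow RefSeq R64, and the authors also mapped their reads to R64. *PGM2* (YMR105C, chromosome XIII, 475897 to 477606) encodes the major phosphoglucomutase, and *UGP1* (YKL035W, chromosome XI, 369891 to 371390) the UDP-glucose pyrophosphorylase. *GLG1* (YKR058W, chromosome XI, 552770 to 554620) and *GLG2* (YJL137C, chromosome X, 154985 to 156127) encode the glycogenin primers. *GSY1* (YFR015C, chromosome VI, 174265 to 176391) and *GSY2* (YLR258W, chromosome XII, 660716 to 662833) encode the synthases, of which Gsy2 is the major one, and *GLC3* (YEL011W, chromosome V, 133120 to 135234) the branching enzyme. *GPH1* (YPR160W, chromosome XVI, 861306 to 864014) encodes the phosphorylase and *GDB1* (YPR184W, chromosome XVI, 902044 to 906654) the debranching enzyme. The coding sequences of *GSY1* and *GSY2* were 73.8% identical with no shared run longer than 20 bases, and those of *GLG1* and *GLG2* were 71.0% identical with no shared run longer than 14 bases.

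The core of the stress response element is AGGGG. It was searched on both strands in the 500 bases before each start codon, with no trimming at neighboring genes. At least 1 match was found for 8 of the 9 glycogen genes, against 34.1% of the windows of 6000 genes. At least 2 matches were found for 7 of the 9, against 8.13% of all windows, and at least 3 for 3 of the 9, against 1.83%. *PGM2* had 5 matches, *UGP1* 4, *GLC3* 3 and *GLG1* none. A match describes the letters and is not a bound site. The windows below are shown because they belong to genes whose RNA moved together in the mutants (*PGM2*, *GLC3*, *GSY2*, *GPH1*, *GDB1*) and to 1 gene with many matches whose RNA moved little (*UGP1*). Each is written 5′ to 3′ on the strand of its gene, from RefSeq R64, and the capitals mark AGGGG or its complement CCCCT.
*PGM2*, chrXIII:477803-478027, minus strand: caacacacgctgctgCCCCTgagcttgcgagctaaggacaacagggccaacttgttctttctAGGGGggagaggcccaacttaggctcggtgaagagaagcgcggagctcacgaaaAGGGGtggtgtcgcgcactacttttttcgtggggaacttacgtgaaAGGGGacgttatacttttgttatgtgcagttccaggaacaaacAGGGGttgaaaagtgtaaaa
*GLC3*, chrV:132731-132926, plus strand: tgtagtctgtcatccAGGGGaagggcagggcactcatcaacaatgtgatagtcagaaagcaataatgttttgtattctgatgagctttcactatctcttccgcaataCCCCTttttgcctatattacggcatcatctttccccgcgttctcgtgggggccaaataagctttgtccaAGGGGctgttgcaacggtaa
*GSY2*, chrXII:660324-660539, plus strand: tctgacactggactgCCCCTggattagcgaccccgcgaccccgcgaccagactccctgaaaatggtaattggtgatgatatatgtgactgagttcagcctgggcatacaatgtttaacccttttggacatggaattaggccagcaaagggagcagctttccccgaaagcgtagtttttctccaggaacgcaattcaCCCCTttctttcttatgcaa
*GPH1*, chrXVI:860934-860999, plus strand: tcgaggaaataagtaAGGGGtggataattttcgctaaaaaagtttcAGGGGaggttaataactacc
*GDB1*, chrXVI:901837-901871, plus strand: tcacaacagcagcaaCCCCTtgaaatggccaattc
*UGP1*, chrXI:369393-369650, plus strand: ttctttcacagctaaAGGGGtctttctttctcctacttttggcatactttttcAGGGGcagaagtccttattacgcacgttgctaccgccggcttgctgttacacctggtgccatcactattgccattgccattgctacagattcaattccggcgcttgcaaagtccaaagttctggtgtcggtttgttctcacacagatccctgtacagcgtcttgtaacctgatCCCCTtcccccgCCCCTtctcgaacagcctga

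**Figure D1:**
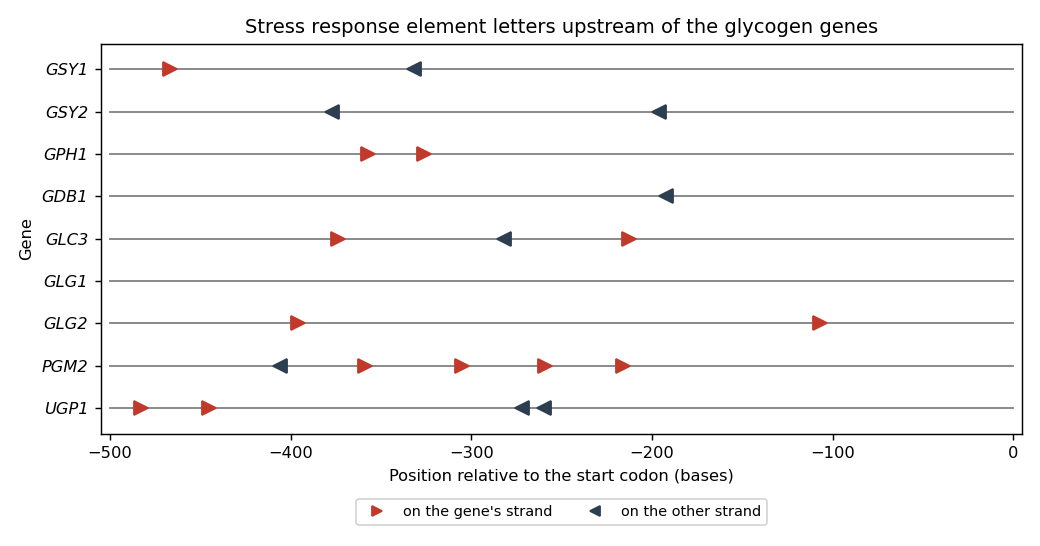
Matches to AGGGG in the 500 bases before the start codon of each glycogen gene. The x axis is the position relative to the start codon in bases, right-pointing marks are on the strand of the gene and left-pointing marks on the other strand. *PGM2* held 5 matches between 406 and 216 bases before its start codon, and *GLG1* held none.

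Some properties of the libraries bear on the values. *DEF1* had at most 4 counts in any *def1Δ* library of total or labeled RNA, and 141 to 291 counts in *def1Δ* input RNA against 11464 to 31700 in WT input RNA. *DHH1* had 2152 to 2614 counts in the input libraries labelled *dhh1Δ* against 3140 to 9732 in WT (log2 fold change -1.77, SE 0.15), so reads of *DHH1* remained, and 62 to 113 counts in the *dhh1Δ* footprint columns against 1176 to 1822 in WT. In *dhh1Δ* input RNA all 4 alpha-specific genes rose (log2 3.70 to 9.92), with summed levels of 1993 to 2281 CPM in *dhh1Δ* against 34.3 to 39.2 CPM in WT libraries. The 6 a-specific genes *MFA1*, *MFA2*, *STE2*, *STE6*, *BAR1* and *AGA2* fell (log2 -3.63 to -7.55). They summed to 38.1 to 45.02 CPM in *dhh1Δ* against 1636 to 1876 CPM in WT libraries. *AFB1*, which was first listed with them, rose as the alpha-specific genes did (73.1 to 119 CPM in *dhh1Δ*, 2.41 to 6.97 CPM in WT). These genes of the *dhh1Δ* libraries had the pattern of the other mating type. Its part in any difference from *dhh1Δ* cells cannot be told apart from that of the deletion. In *def1Δ* total RNA the a-specific genes *MFA2* (log2 -1.42), *STE2* (-1.50) and *BAR1* (-1.23) fell, where 9.68% of all genes tested did. *MFA1*, *STE6* and *AGA2* were not called, and *AFB1* fell (-2.14). The *def1Δ* total RNA libraries also stood apart in RNAs of the mitochondrial genome. Of 24 tested, 14 fell and 2 rose, where 9.68% and 8.72% of all genes did. *COX1* had 7 and 9 counts in *def1Δ* against 4508 and 6755 in WT total RNA, *COB* 6 and 8 against 10459 and 12620, and *ATP6* 0 and 0 against 289 and 385. *COX2* (2663 and 3166 in *def1Δ*, 4724 and 5348 in WT) was not called, and *COX3* rose (13757 and 17637 in *def1Δ*, 6025 and 6968 in WT). Both *def1Δ* total RNA libraries were alike in this, so total RNA has no comparison without it. In the other *def1Δ* libraries *COX1* had 658 to 2314 counts in labeled RNA and 3863 to 5920 in input RNA. WT libraries had 649 to 1917 and 2858 to 6785 counts, and these counts are not scaled for depth. After scaling, *COX1*, *COB* and *COX2* were called lower in *def1Δ* labeled RNA at 90 min. With *COX3* they summed to 1064 and 1068 CPM in *def1Δ* libraries at 90 min, against 2061 and 2312 CPM in WT libraries. None of these 4 was called in *def1Δ* input RNA. In labeled RNA at 90 min 6 of the 9 glycogen genes rose, where 15.6% of all genes did. In input RNA 5 of the 9 rose, where 5.8% of all genes did. At 6, 9 and 24 min of labeling none of the 9 was called in either direction, where 20.6%, 24.8% and 27.4% of all genes were. The part of the mitochondrial difference in the glycogen values was not tested. Depth was 9954485 to 14243524 counts per library in total RNA, 6026470 to 16318076 in labeled RNA, 14894073 to 45654269 in input RNA and 1984692 to 8635312 in footprints. CPM are counts scaled to a common library size after TMM normalization, which sets each library against the bulk of its own RNAs, so every value is a level relative to other RNAs and not an amount per cell. In such bulk samples fewer cells that express a gene and less of its RNA per cell cannot be told apart.

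The first question was whether loss of *DEF1* changed the steady-state levels. In total RNA, 6 of the 9 glycogen genes rose in *def1Δ* cells and none fell, where 8.72% of the 6055 genes tested rose. The median log2 fold change was 1.30 over the 9 genes and 0.04 over all genes. A call here and below needed an adjusted p under 0.01 from edgeR's quasi-likelihood test (Benjamini-Hochberg over all genes) and a log2 fold change beyond 1 in size. The summed level of the 9 genes was 838 ± 11.9 CPM in *def1Δ* cells and 378 ± 23.3 CPM in WT cells (SD, n = 2 each).

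Genes for the major synthase, the branching enzyme, the debranching enzyme and the phosphorylase were among those that rose. *GLC3* had 122 and 115 CPM in *def1Δ* libraries, against 28.5 and 27.0 CPM in WT libraries. *GDB1* had 199 and 196 CPM in *def1Δ* libraries, against 41.6 and 54.5 CPM in WT libraries. *GSY2* had 156 and 138 CPM in *def1Δ* libraries, against 45.8 and 59.5 CPM in WT libraries. For these genes the lower *def1Δ* library stood far above the higher WT library, and the fold changes were 4.26 for *GLC3*, 4.11 for *GDB1* and 2.78 for *GSY2*. Their log2 fold changes were 2.09 (SE 0.13, adjusted p = 2.6e-05), 2.04 (SE 0.16, adjusted p = 6.63e-05) and 1.48 (SE 0.16, adjusted p = 0.000245) by edgeR. *GPH1* had 171 and 183 CPM in *def1Δ* libraries, against 77.3 and 95.7 CPM in WT libraries. This was the smallest called rise, with a log2 fold change of 1.03 (SE 0.15, edgeR adjusted p = 0.000794). It was no longer called without WT replicate 1 (0.88), without *def1Δ* replicate 1 (adjusted p = 0.0181) or without *def1Δ* replicate 2 (0.99).

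Among the genes that supply the precursor, *PGM2* and *UGP1* differed. *PGM2* had 62.1 and 69.0 CPM in *def1Δ* libraries, against 15.5 and 15.5 CPM in WT libraries, a log2 fold change of 2.08 (SE 0.13, edgeR adjusted p = 2.82e-05). *UGP1* had 85.6 and 75.2 CPM in *def1Δ* libraries, against 113 and 101 CPM in WT libraries. Its values were lower in each *def1Δ* library than in either WT library, but the log2 fold change of -0.41 (SE 0.14, edgeR adjusted p = 0.0353) was not called. UDP-glucose also feeds cell wall glucan and trehalose, so *UGP1* serves more than glycogen.

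The paralog pairs were not alike. *GLG1* had 14.1 and 15.8 CPM in *def1Δ* libraries, against 5.78 and 6.37 CPM in WT libraries, with a log2 fold change of 1.30 (SE 0.18, edgeR adjusted p = 0.00071), which without *def1Δ* replicate 2 had an adjusted p of 0.018. *GLG2* had 18.7 and 18.3 CPM in *def1Δ* libraries, against 13.1 and 15.9 CPM in WT libraries, and was not called (log2 fold change 0.35, SE 0.16, edgeR adjusted p = 0.0988). *GSY1* had 17.6 and 19.8 CPM in *def1Δ* libraries, against 20.3 and 19.1 CPM in WT libraries, and the libraries of the strains overlapped. Its log2 fold change was -0.07, with a 95% interval from -0.39 to 0.25.

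Per kilobase of coding sequence, *GSY2* (69.3 ± 6.06 CPM per kb), *GPH1* (65.4 ± 3.07), *GLC3* (55.9 ± 2.54) and *UGP1* (53.6 ± 4.9) were the highest of the 9 genes in *def1Δ* total RNA (SD, n = 2). The libraries of *GSY2* and *GPH1*, and those of *GLC3* and *UGP1*, were within their spread of each other. In WT total RNA, *UGP1* came first with 71.3 ± 6.09 CPM per kb, followed by *GPH1* with 31.9 ± 4.81 and *GSY2* with 24.9 ± 4.58 (SD, n = 2).

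**Figure D2:**
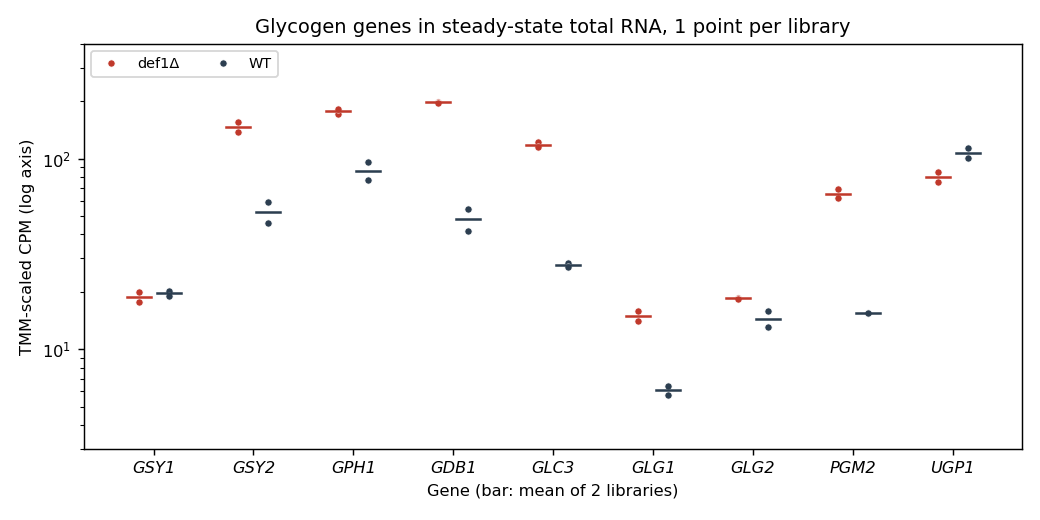
Levels of the 9 glycogen genes in total RNA. The y axis is TMM-scaled CPM on a log scale, points are the 2 libraries of each strain (*def1Δ* left of WT) and bars are means. *GLC3*, *GDB1* and *PGM2* lay about 4-fold higher in *def1Δ* libraries, and the points of *GSY1* overlapped.

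Labeled RNA is RNA made since 4tU was added, so short labeling weights new transcripts and long labeling approaches the whole pool. At 6 min none of the 9 genes was called in either direction, where 20.6% of the 6485 genes tested were, while 3 had an unadjusted p under 0.05 by edgeR and DESeq2 called 0. At 9 min none was called (background 24.8%), while 5 had an unadjusted p under 0.05 and DESeq2 called 0. At 24 min none was called (background 27.4%), while 5 had an unadjusted p under 0.05 and DESeq2 called 1. Over all 6485 genes, 4006, 4187 and 4259 had an unadjusted p under 0.05 by edgeR at 6, 9 and 24 min. The share of the 9 glycogen genes was below this at each time. The median log2 fold changes of the 9 genes were 0.12, -0.14 and -0.15 at 6, 9 and 24 min, against -0.05, -0.01 and 0.02 over all genes.

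Within these times *GSY1* was lower in every *def1Δ* library than in any WT library of the same time, without being called. *GSY1* had 38.0 and 28.97 CPM in *def1Δ* cells at 6 min, against 44.4 and 45.3 CPM in WT cells. At 24 min *GSY1* had 46.3 and 48.7 CPM in *def1Δ* cells, against 94.1 and 87.7 CPM in WT cells. Its log2 fold changes were -0.87 (SE 0.14) at 9 min and -0.94 (SE 0.14) at 24 min, just short of the fold needed for a call. The 24 min value passed with DESeq2 size factors (-1.02) and with no count filter (-1.02), and the 9 min value passed with no count filter (-1.01), without WT 9 min replicate 1 (-1.14) and without *def1Δ* 9 min replicate 2 (-1.03). *PGM2* at 24 min had 66.7 and 57.5 CPM in *def1Δ* cells, against 121 and 94.1 CPM in WT cells, with a log2 fold change of -0.80 (SE 0.19) that was not called. *GLG1* stood apart in the other direction at 6 min, with 46.7 and 36.3 CPM in *def1Δ* cells against 23.6 and 25.8 CPM in WT cells and a log2 fold change of 0.74 (SE 0.17), also not called.

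After 90 min the picture differed. Of the 9 genes 6 rose in *def1Δ* cells and none fell, where 15.6% of all genes tested rose, and the median log2 fold change was 1.32 over the 9 genes and 0.00 over all genes. *PGM2* had 162 and 158 CPM in *def1Δ* cells, against 30.7 and 20.9 CPM in WT cells. *GPH1* had 291 and 242 CPM in *def1Δ* cells, against 81.6 and 44.3 CPM in WT cells. No library of 1 strain reached the range of the other for these genes, and their log2 fold changes were 2.62 (SE 0.21, edgeR adjusted p = 2.26e-08) and 2.07 (SE 0.23, edgeR adjusted p = 8.08e-07). *GLC3* had 172 and 165 CPM in *def1Δ* cells, against 47.6 and 36.7 CPM in WT cells. *GDB1* had 169 and 147 CPM in *def1Δ* cells, against 43.9 and 45.6 CPM in WT cells. Branching and debranching genes thus had log2 fold changes of 1.99 (SE 0.15) and 1.82 (SE 0.15). *GSY1* had 63.2 and 56.1 CPM in *def1Δ* cells, against 25.8 and 21.6 CPM in WT cells, and *GSY2* had 163 and 148 CPM in *def1Δ* cells, against 79.9 and 50.8 CPM in WT cells. Their log2 fold changes were 1.32 (SE 0.15) and 1.24 (SE 0.18), and that of *GSY2* dropped to 0.96 without WT 90 min replicate 2. *GLG1* (0.95, SE 0.19), *UGP1* (0.40, SE 0.12) and *GLG2* (0.33, SE 0.16) were not called, although *GLG1* passed without WT 90 min replicate 1 (1.19) or without *def1Δ* 90 min replicate 1 (1.00).

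The time courses show where the strains parted. In *def1Δ* cells *GSY1* had means of 33.5, 33.3, 47.5 and 59.7 CPM at 6, 9, 24 and 90 min (n = 2 each), so that the 90 min libraries were the highest. In WT cells its means were 44.8, 60.8, 90.9 and 23.7 CPM at the same times, and the 90 min libraries were the lowest. The single 12 min libraries had 28.3 CPM in *def1Δ* cells and 58.1 CPM in WT cells. *PGM2*, *GLC3* and *GPH1* had their highest means at 90 min in *def1Δ* cells and at 24 min in WT cells.

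Levels at 90 min were also set against those at 6 min within each strain. In *def1Δ* cells 2 of the 9 genes rose and none fell, where 18.9% of all genes rose, so that the share was near the background. These were *PGM2* (log2 fold change 1.83, SE 0.19) and *GPH1* (1.53, SE 0.22). The median was 0.81 over the 9 genes and -0.12 over all genes. The count was 5 without *def1Δ* 6 min replicate 1. In WT cells 3 of the 9 genes fell and none rose, where 10.8% of all genes fell. These were *GDB1* (log2 fold change -1.21, SE 0.15), *GSY2* (-1.18, SE 0.18) and *GLC3* (-1.06, SE 0.15). The median was -0.79 over the 9 genes and -0.16 over all genes. The count was 6 without WT 90 min replicate 1 and 1 without WT 90 min replicate 2, and *GLC3* was at -0.98 with DESeq2 size factors.

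The interaction term tested whether the *def1Δ* effect at 90 min differed from that at 6 min. It was called as higher for 6 of the 9 genes and lower for none, where 5.84% of all genes were higher. The median was 1.36 over the 9 genes and 0.00 over all genes. *PGM2* had the largest difference (2.53, SE 0.28, edgeR adjusted p = 2.39e-05), followed by *GLC3* (1.87, SE 0.21), *GSY1* (1.75, SE 0.21) and *GPH1* (1.70, SE 0.31). *GSY2* (1.07, SE 0.25, edgeR adjusted p = 0.00499) was not called without WT 6 min replicate 1, WT 90 min replicate 2, *def1Δ* 6 min replicate 2 or either *def1Δ* 90 min library. The WT 90 min libraries (7852007 and 6026470 counts) had the lowest TMM factors of the labeled libraries, 0.754 and 0.738, and the part of this in the 90 min results was not tested.

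**Figure D3:**
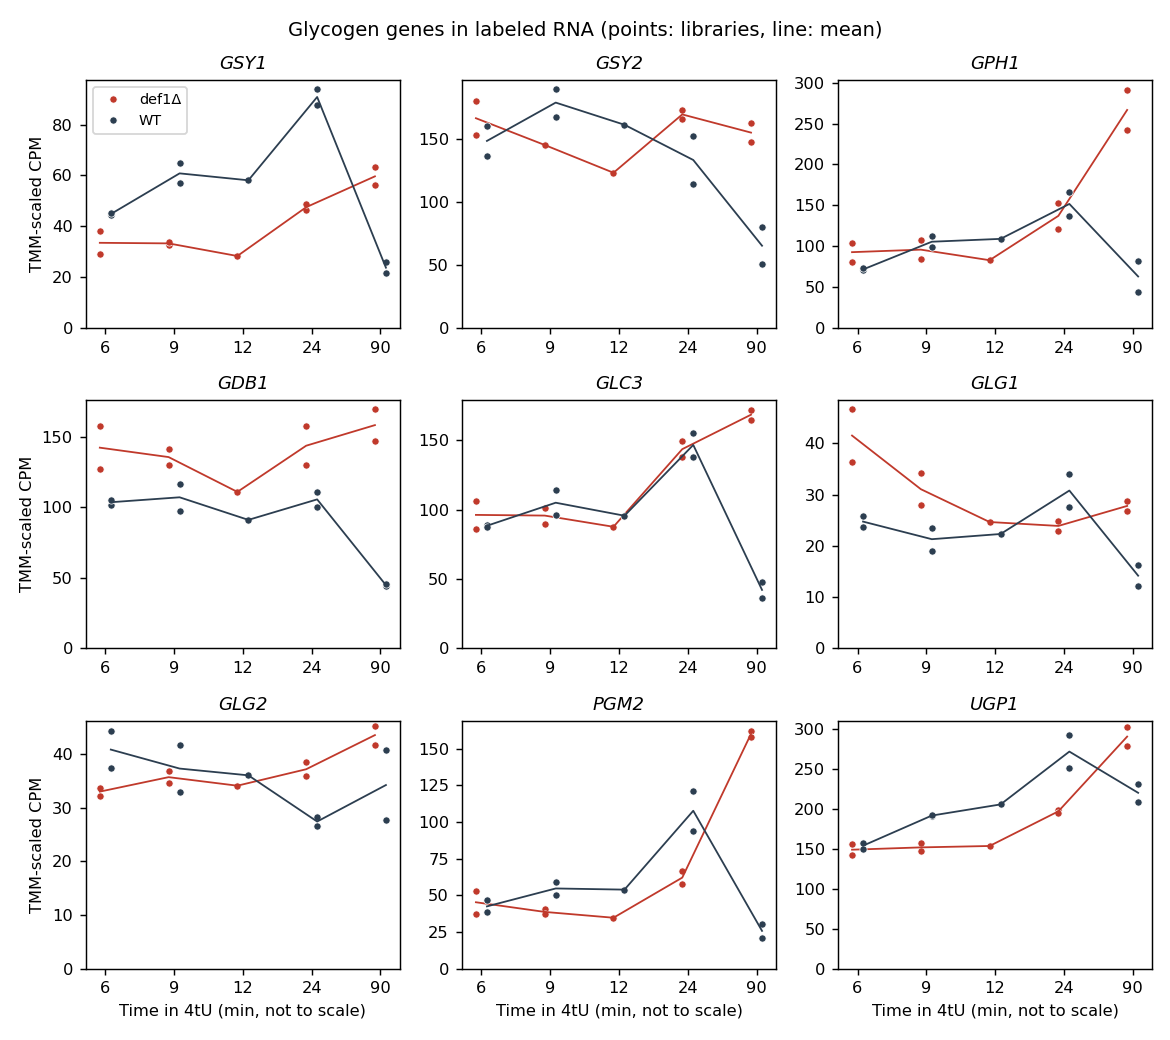
Labeled RNA of the 9 genes over time. The x axis gives the minutes in 4tU in order but not to scale, the y axis is TMM-scaled CPM, points are libraries and lines join the means (red *def1Δ*, dark WT, 1 library per strain at 12 min). At 90 min *GPH1* lay at 291 and 242 CPM in *def1Δ* cells and at 81.6 and 44.3 CPM in WT cells, and at 6 min at 104 and 81.0 CPM in *def1Δ* cells and 70.3 and 72.8 CPM in WT cells.

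The input RNA of the ribosome profiling gave a separate measurement of both deletions. In *def1Δ* cells 5 of the 9 genes rose and none fell, where 5.8% of the 6434 genes tested rose. In *dhh1Δ* cells 6 of the 9 rose and none fell, where 6.42% of all genes rose. The median log2 fold changes of the 9 genes were 1.55 in *def1Δ* and 1.89 in *dhh1Δ* cells, against -0.01 and -0.01 over all genes. Both comparisons used the same 3 WT libraries. The summed level of the 9 genes was 1602 ± 106 CPM in *def1Δ*, 1872 ± 254 CPM in *dhh1Δ* and 672 ± 53.5 CPM in WT cells (SD, n = 3 each).

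*GLC3* had 108, 136 and 139.5 CPM in *def1Δ* libraries and 178, 171 and 144 CPM in *dhh1Δ* libraries, against 28.9, 28.6 and 24.9 CPM in WT libraries. *GSY2* had 351, 412 and 411 CPM in *def1Δ* libraries and 483, 473 and 360 CPM in *dhh1Δ* libraries, against 117, 96.4 and 96.4 CPM in WT libraries. Every mutant library was above every WT library for these genes. The log2 fold changes of *GLC3* were 2.22 (SE 0.14, edgeR adjusted p = 2.47e-06) in *def1Δ* and 2.58 (SE 0.14, edgeR adjusted p = 6.09e-07) in *dhh1Δ* cells. Those of *GSY2*, the major synthase, were 1.92 (SE 0.15) and 2.08 (SE 0.15). *GDB1* had 359, 424 and 407 CPM in *def1Δ* libraries and 559, 577 and 461 CPM in *dhh1Δ* libraries, against 131, 124 and 153 CPM in WT libraries. *PGM2* had 80.2, 103 and 100.2 CPM in *def1Δ* libraries and 139, 108 and 99.1 CPM in *dhh1Δ* libraries, against 33.0, 34.6 and 25.6 CPM in WT libraries. The log2 fold changes were 1.55 (SE 0.13) and 1.97 (SE 0.13) for *GDB1*, and 1.60 (SE 0.17) and 1.89 (SE 0.17) for *PGM2*, in *def1Δ* and *dhh1Δ* cells in that order.

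*GPH1*, the phosphorylase gene, showed the largest fold change of the 9 genes in both mutants and the lowest level in WT input RNA. It had 31.3, 37.0 and 37.1 CPM in *def1Δ* libraries and 114, 102 and 79.5 CPM in *dhh1Δ* libraries, against 8.88, 6.23 and 2.90 CPM in WT libraries. The WT values rest on 283, 166 and 42 counts. Its log2 fold changes were 2.50 (SE 0.30, edgeR adjusted p = 0.000132) in *def1Δ* and 3.99 (SE 0.31, edgeR adjusted p = 7.1e-06) in *dhh1Δ* cells. Per kilobase it was the lowest of the 9 genes in WT input RNA (2.22 ± 1.11 CPM per kb, SD, n = 3), whereas in WT total RNA it was the second highest. *UGP1* had the highest mean in input RNA of all 3 strains, at 279 ± 9.22 CPM per kb in *def1Δ*, 231 ± 27.3 in *dhh1Δ* and 187 ± 31.5 in WT cells (SD, n = 3 each), although *GSY2* in *dhh1Δ* cells (207 ± 32.4) was within the spread.

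*GSY1* had 70.7, 98.3 and 59.6 CPM in *def1Δ* libraries and 147, 123 and 89.8 CPM in *dhh1Δ* libraries, against 39.8, 49.0 and 39.6 CPM in WT libraries. It was called in *dhh1Δ* cells (log2 fold change 1.48, SE 0.22, edgeR adjusted p = 0.000454) and not in *def1Δ* cells (0.83, SE 0.21, edgeR adjusted p = 0.0112). Set against each other, *def1Δ* was lower than *dhh1Δ* by a log2 fold change of -0.65 (SE 0.21, edgeR adjusted p = 0.0442), which was not called. *UGP1* (0.57, SE 0.14), *GLG1* (0.53, SE 0.21) and *GLG2* (0.43, SE 0.18) were not called in *def1Δ* cells, nor in *dhh1Δ* cells (0.30, 0.26 and 0.47).

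The direct comparison of the mutants called 1 of the 9 genes, *GPH1*, as lower in *def1Δ* than in *dhh1Δ* cells, where 3.29% of all genes were lower. The median log2 fold change was -0.29 over the 9 genes and -0.01 over all genes. Its log2 fold change was -1.49 (SE 0.28, edgeR adjusted p = 0.00356). The call rested on several libraries, since the adjusted p was 0.016 without *def1Δ* replicate 1, 0.0169 without *def1Δ* replicate 2, 0.0125 without *dhh1Δ* replicate 1 and 0.0144 without *dhh1Δ* replicate 2. For the other 8 genes the log2 difference was not called, and the 95% intervals were -0.48 to 0.15 for *GSY2*, -0.71 to -0.14 for *GDB1*, -0.64 to -0.07 for *GLC3* and -0.65 to 0.07 for *PGM2*.

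In footprints, the reads of ribosome-protected mRNA, 6 of the 9 genes rose in *def1Δ* cells and none fell, where 6.46% of the 5601 genes tested rose. The median log2 fold change was 2.29 over the 9 genes and 0.01 over all genes. Whether the 3 columns of a strain are separate cultures is not stated, so the p-values measure the spread between columns. *GLC3* had 102, 117 and 110 CPM in *def1Δ* columns, against 14.9998, 17.4 and 13.4 CPM in WT columns. *GDB1* had 86.2, 107 and 101 CPM in *def1Δ* columns, against 19.4, 14.3 and 12.2 CPM in WT columns. *GSY2* had 107, 129 and 113 CPM in *def1Δ* columns, against 31.6, 22.5 and 17.9 CPM in WT columns. The ranges of the strains were far apart, and the log2 fold changes were 2.84 (SE 0.14) for *GLC3*, 2.69 (SE 0.18) for *GDB1* and 2.29 (SE 0.19) for *GSY2*. *GPH1* had 154, 192 and 183 CPM in *def1Δ* columns, against 43.4, 32.5 and 21.0 CPM in WT columns. *PGM2* had 135, 182 and 152 CPM in *def1Δ* columns, against 46.8, 25.3 and 14.9 CPM in WT columns. Their log2 fold changes were 2.46 (SE 0.23) and 2.45 (SE 0.33), with a 3-fold spread of *PGM2* among the WT columns. *GSY1* had 48.2, 49.6 and 36.9 CPM in *def1Δ* columns, against 23.8, 23.7 and 18.3 CPM in WT columns. Its log2 fold change of 1.04 (SE 0.16, edgeR adjusted p = 0.000751) lost the call without WT column 3 (0.90), *def1Δ* column 1 (0.99) or *def1Δ* column 2 (0.96). *GLG1*, *GLG2* and *UGP1* were not called (0.47, 0.16 and 0.31), and *GLG1* had no more than 54 counts in any column of either strain.

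The 3 *dhh1Δ* footprint columns belong to 1 sample and are given as values only. They held 459, 451 and 359 CPM for *GPH1*, 199, 198 and 166 CPM for *PGM2*, 159, 115 and 101 CPM for *GSY2* and 111, 92.1 and 76.3 CPM for *GLC3*. For each of these genes the lowest *dhh1Δ* value was above the highest WT value given above. By the mean of the columns, *GDB1* had 108 CPM in *dhh1Δ* against 15.3 CPM in WT cells, and *GSY1* 64.8 against 21.9 CPM. *UGP1* had 569 against 479 CPM, *GLG1* 7.19 against 4.82 CPM, and *GLG2* was lower in *dhh1Δ*, with 10.3 against 11.4 CPM.

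**Figure D4:**
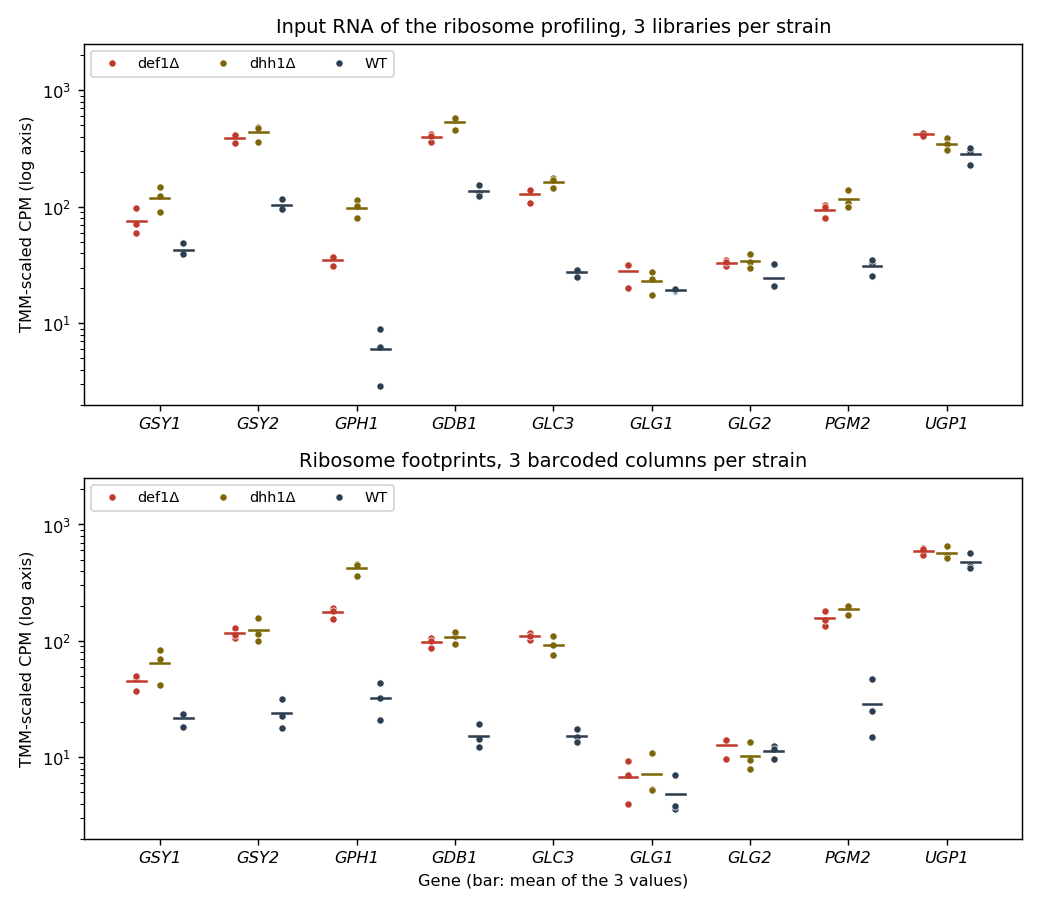
Input RNA (top) and ribosome footprints (bottom) of the 9 genes. The y axes are TMM-scaled CPM on a log scale, points are the 3 libraries or columns of each strain (*def1Δ*, *dhh1Δ*, then WT) and bars are means. *GPH1* had 2.90 to 8.88 CPM in WT input RNA and 21.0 to 43.4 CPM in WT footprints, and both mutants were higher in either panel.

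For translational efficiency, 1 model over input RNA and footprints tested whether the *def1Δ* effect differed between them. None of the 9 genes was called, where 0.156% of the 6423 genes tested were called in either direction, while 2 of the 9 had an unadjusted p under 0.05 by edgeR and DESeq2 called 1. Over all 6423 genes, 976 had an unadjusted p under 0.05 by edgeR. The median log2 difference was 0.17 over the 9 genes and -0.08 over all genes. The gene called by DESeq2 was *GDB1*, with a log2 difference of 1.10 (SE 0.23, edgeR adjusted p = 0.0387, DESeq2 adjusted p = 0.000137). The 95% intervals were -0.18 to 0.85 for *GSY2*, -0.92 to 0.74 for *GPH1* and -0.00 to 1.63 for *PGM2*, so that sizable differences were not resolved. That of *GLC3*, 0.15 to 1.02, was positive throughout before adjustment over all genes, but the gene was not called. As a description, the mean footprint CPM per mean input CPM of *GDB1* was 0.246 in *def1Δ*, 0.202 in *dhh1Δ* and 0.113 in WT cells. Among the 5048 genes with enough input, this placed *GDB1* at percentile 4.6 in WT cells and *GPH1* at percentile 98.8, with a ratio of 5.38.

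**Figure D5:**
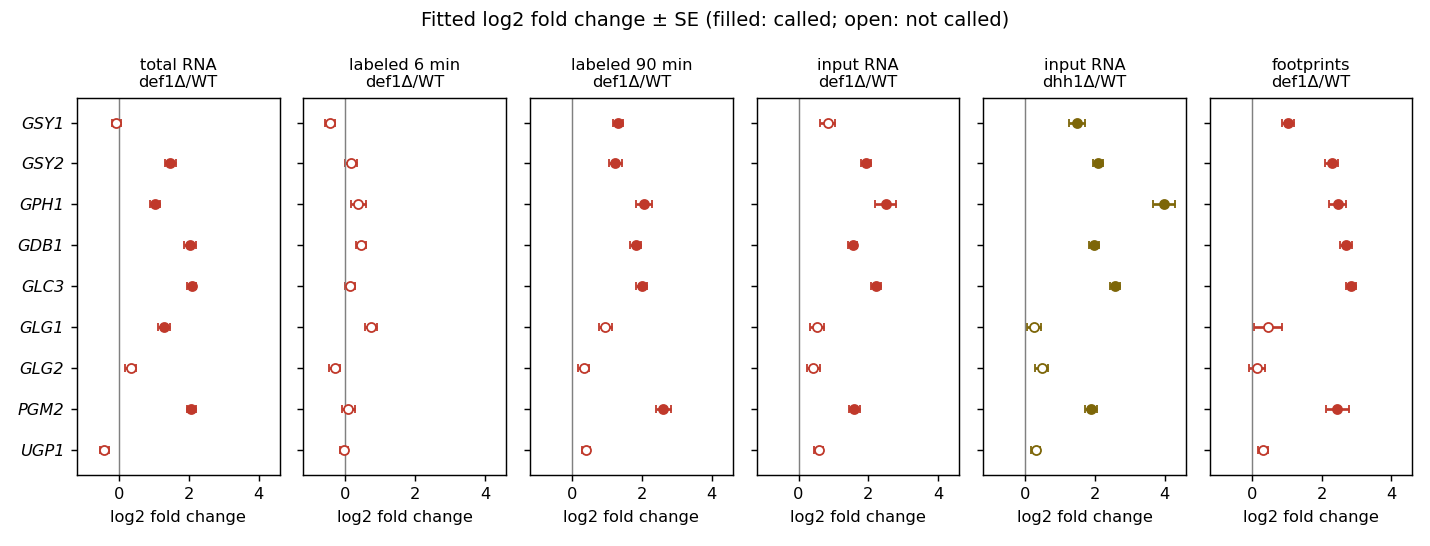
Fitted log2 fold changes of the 9 genes with their standard errors in 6 comparisons (filled symbols called, open symbols not called). *GSY2*, *GPH1*, *GDB1*, *GLC3* and *PGM2* were filled in each comparison except labeled RNA at 6 min, where none was, and *GLG2* and *UGP1* were open in all 6.

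The genes around the pathway were described by lists, whose counts are read beside the share of all tested genes called higher in the same comparison. In *def1Δ* over WT this share was 8.72% in total RNA, 10.9%, 13.4%, 14.9% and 15.6% in labeled RNA at 6, 9, 24 and 90 min, 5.8% in input RNA and 6.46% in footprints, and in *dhh1Δ* over WT input RNA it was 6.42%. Of 13 regulators of glycogen synthesis, 5 rose in *def1Δ* total RNA and none fell, with a median log2 fold change of 0.60. *GAC1*, which encodes a targeting subunit that brings the Glc7 phosphatase to glycogen synthase, ranged from 121 to 163 CPM in *def1Δ* libraries and from 14.4 to 22.9 CPM in WT libraries (log2 fold change 2.92, SE 0.24). *GIP2* (2.50), *REG1* (1.55) and *PIG2* (1.36) encode other subunits of Glc7. *GAC1* was also higher in *def1Δ* input RNA (3.82, SE 0.36), in *dhh1Δ* input RNA (4.55, SE 0.37), in *def1Δ* footprints (3.90, SE 0.31) and in labeled RNA at 6 min (2.86, SE 0.23), 9 min (2.90, SE 0.23), 24 min (1.46, SE 0.22) and 90 min (3.20, SE 0.28). Unlike the 9 enzyme genes, it was thus called after the shortest labeling. Of the 13 regulators, 3 rose in *def1Δ* and 4 in *dhh1Δ* input RNA, 3 at 6 min, 2 at 9 min, 3 at 24 min, 7 at 90 min and 2 in footprints, and none fell. The 2 of 13 at 9 min were near the share over all genes.

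Of 7 genes that make hexose phosphates or free glucose from glycogen, 4 rose in *def1Δ* total RNA and none fell. The called genes were *GLK1* (3.30), *HXK1* (1.72) and *PGI1* (1.11), which act on hexose and its phosphates, and *SGA1* (2.49), known as a sporulation-specific glucoamylase. All 7 trehalose genes rose in *def1Δ* total RNA, led by the trehalase gene *NTH1* (2.79) and the synthase complex genes *TSL1* (2.62) and *TPS2* (1.58). In input RNA 4 of the 7 rose in *def1Δ* and 3 of the 7 in *dhh1Δ* cells, and in labeled RNA 2 rose at 6 min, where 10.9% of all genes did, and 6 at 90 min (15.6%).

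The stress genes held 11 tested members in total RNA, and all 11 rose in *def1Δ* cells, among them *DDR2* (4.67), *HSP12* (4.27), *HSP104* (2.90) and *SSA4* (2.60). In input RNA 9 of 12 rose in *def1Δ* and 11 of 12 in *dhh1Δ* cells, and 11 of 12 rose in *def1Δ* footprints. In labeled RNA 2 of 11 rose at 6 min and 1 at 9 min, which was near or below the share over all genes, and none fell at either time. At 24 min 5 of 11 fell (led by *SSA4* at -2.76), where 12.5% of all genes fell, and at 90 min 8 of 11 rose. The median log2 fold change of this list was -1.21 at 24 min and 1.99 at 90 min. Of 8 genes for Msn2, Msn4 and protein kinase A signaling, edgeR called none in *def1Δ* total RNA (median log2 fold change 0.20), while 3 had an unadjusted p under 0.05 and DESeq2 called 0. Over all 6055 genes tested in total RNA, 3402 had an unadjusted p under 0.05 by edgeR, a larger share. In *def1Δ* input RNA 1 of the 8 rose, where 5.8% of all genes did. In labeled RNA 1, 3, 2 and 4 rose at 6, 9, 24 and 90 min, and DESeq2 called 3 at 90 min. Among them *MSN4* was higher in *def1Δ* input RNA (1.45), *dhh1Δ* input RNA (1.12), *def1Δ* footprints (1.15) and *def1Δ* labeled RNA at 6, 9, 24 and 90 min (1.09, 1.47, 1.27 and 1.03), against 0.26 in total RNA, which was not called.

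Likeness to the glycogen genes was measured as Pearson's r with their mean standardized log2 CPM, centered within each experiment and labeling time, over 29 libraries that share strains and sequencing runs, for 5080 genes. Of the 9 genes, *GLC3* (0.970), *GSY2* (0.955) and *PGM2* (0.953) were closest to their own mean, and *GLG1* (0.662) and *UGP1* (0.549) farthest. Each of the 9 is part of that mean, which raises its own r, so these values cannot be ranked against those of other genes. The 5 closest other genes were *GOR1* (0.964), a glyoxylate reductase gene, *GAD1* (0.964), a glutamate decarboxylase gene, *GRE3* (0.957), an aldose reductase gene, *YOR289W* (0.951) and *YKL091C* (0.951).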

How the data were processed

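The series holds total RNA, 4tU-labeled RNA (RATE-Seq) and ribosome profiling of W303 yeast. For total and labeled RNA the authors mapped reads with STAR to the R64 genome and deposited the estimated counts of RSEM 1.2.28 per gene, not normalized; the library kit kept strand. For input RNA and footprints the authors deposited whole counts per gene, not normalized. The submitters' processing notes also name FastQC, HISAT2 and featureCounts without versions or roles, and which tables they were used for is not given in the sources used here. Estimated counts were rounded to whole numbers. The authors normalized to *S. pombe* spike-ins, which were not used here, and scaling here was by TMM on yeast genes, so a shift common to all RNAs cannot be seen.

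Genes reaching a sum of 15 counts across the fitted libraries were tested with edgeR 4.0.16 (quasi-likelihood, Benjamini-Hochberg adjustment over all genes) in R 4.3.3. A gene was called at an adjusted p below 0.01 with a log2 fold change beyond 1 in size. The 16 labeled libraries of 6, 9, 24 and 90 min were fitted together, as were the 9 input libraries. The standard error is the log2 fold change over the square root of its F statistic. DESeq2 1.42.0, other scaling, filters, thresholds, single fits, replicate blocks and each replicate left out were alternatives. The edgeR procedure was tested on simulated data. Library totals are given in the report, and their counting error is small for all but the lowest counts.

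Samples were grouped by their labels. Replicates differed by more than sampling noise (lowest chi-square per gene 5.04), so none was merged; whether libraries came from separate cultures is stated only in part, and p-values then measure the spread between these libraries. The 12 min libraries of replicate 1 failed the quality control of the authors and were not analysed here, so 12 min values have no test. Footprint columns are barcoded replicates while the labels name sequencing runs, so the columns were matched to strains only, and the *dhh1Δ* columns, all of 1 sample, got no test. Promoter windows and coding sequences were read from RefSeq R64 with Biopython 1.88.

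The named genes are the 9 members, at most 4 genes per list with the largest change among those called, and the 5 genes of highest likeness. The members and lists were chosen with earlier results of these data known. *MSN4* across several comparisons and *GAC1* at each labeling time were followed, and *AFB1* and the mitochondrial genes singled out, after their values were seen.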

Additional observations from a re-analysis of the deposited data

Results flagged for a closer look

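For 8 of the 9 glycogen genes the *def1Δ* effect on labeled RNA differed between labeling times, by the interaction term of edgeR with an adjusted p under 0.05. This threshold has no fold minimum, and the number of all genes that passed it is given in the next section. Of the 6485 genes tested, 2650 had an unadjusted p under 0.05 for this term by edgeR. As the *def1Δ* effect at 90 min minus that at 6 min, on the log2 scale, the values were 2.53 for *PGM2* (adjusted p = 2.39e-05), 1.87 for *GLC3* (adjusted p = 2.57e-05), 1.75 for *GSY1* (adjusted p = 3.83e-05) and 1.36 for *GDB1* (adjusted p = 0.00022). They were 1.70 for *GPH1* (adjusted p = 0.001), 1.07 for *GSY2* (adjusted p = 0.00499), 0.64 for *GLG2* (adjusted p = 0.0434) and 0.45 for *UGP1* (adjusted p = 0.0497). The first 6 of these also passed the fold needed for a call, where 5.84% of all genes were called higher. The WT 90 min libraries had the lowest TMM factors of the labeled libraries (0.754 and 0.738), and the part of this in these values was not tested. No group held enough libraries for a check of single libraries far from the rest.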

How the results depend on the processing

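The 6 rises in total RNA, the 6 in labeled RNA at 90 min, the 6 interaction terms, the 5 and 6 rises in *def1Δ* and *dhh1Δ* input RNA and the 6 in footprints kept their counts with DESeq2 size factors, DESeq2 and no count filter. Some of these calls were lost when a single library or column was left out, as given above. Among them were *GPH1* and *GLG1* in total RNA, *GSY2* at 90 min and for the interaction, and *GSY1* in footprints. At an adjusted p under 0.05 with no fold minimum, more genes passed: 2970 in total RNA, 3763, 3991, 4070 and 4049 in labeled RNA at 6, 9, 24 and 90 min, 4508 and 3729 for 90 over 6 min in *def1Δ* and WT cells, 1944 for the interaction, 2604, 2387 and 1654 for *def1Δ* over WT, *dhh1Δ* over WT and *def1Δ* over *dhh1Δ* in input RNA, 2230 in footprints and 36 for translational efficiency. The glycogen genes that passed then were 3 at 6 min, 5 at 9 min, 5 at 24 min, 7 in *def1Δ* and 7 in WT cells for 90 over 6 min, 3 for *def1Δ* over *dhh1Δ* and 1 for translational efficiency. At 24 min 1 glycogen gene was called with DESeq2 size factors, 1 with DESeq2 and 1 with no count filter, and at 9 min 1 with no count filter. DESeq2 called 68 genes for translational efficiency, 1 of them a glycogen gene. With no count filter, *GSY2* in *def1Δ* cells for 90 over 6 min was at 0.0116, against -0.10 with the filter, the median of all genes at 9 min moved to -0.13 and the split there to 655 higher and 966 lower, against 869 and 740. With DESeq2 the interaction split was 346 higher and 302 lower, and with no count filter 514 and 157, against 379 and 215. With DESeq2 size factors the median of all genes for translational efficiency was 0.04, against -0.08. For translational efficiency *GPH1* turned to 0.0262 and *GLG1* to 0.00313 with DESeq2 size factors, and *GLG1* to 0.0109 with DESeq2. The cause of these changes was not tested, beyond the thresholds themselves.

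Leaving out single replicates gave these ranges. All genes called were 307 to 1331 in total RNA (lowest without *def1Δ* replicate 2), and 5 to 14 for translational efficiency. Glycogen genes called were 0 to 1 at 9 min, 2 to 5 in *def1Δ* and 1 to 6 in WT cells for 90 over 6 min, and 0 to 1 for *def1Δ* over *dhh1Δ*. Medians of the glycogen genes were -0.12 to 0.18 at 6 min, -0.44 to -0.19 at 9 min, -0.41 to 0.0108 at 24 min, 1.203 to 1.61 at 90 min, 0.75 to 1.07 in *def1Δ* and -1.03 to -0.61 in WT cells for 90 over 6 min, and 1.26 to 1.61 for the interaction. Single genes that were not called changed sign within these ranges: *GSY1* in total RNA -0.16 to 0.0166, *GSY2* -0.0297 to 0.18, *GLC3* -0.12 to 0.17 and *PGM2* -0.25 to 0.23 at 6 min, *GPH1* -0.41 to 0.0108 and *GLC3* -0.17 to 0.0546 at 24 min, *GSY2* in *def1Δ* cells -0.17 to 0.12 and *GPH1* in WT cells -0.69 to 0.19 for 90 over 6 min, *GLG2* for *def1Δ* over *dhh1Δ* -0.14 to 0.0497, and *GPH1* -0.47 to 0.20 and *GLG1* -0.37 to 0.29 for translational efficiency.

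With the replicate number as a block, the counts of genes called were 1130 in total RNA, 1357, 1628, 1784 and 1890 in labeled RNA at 6, 9, 24 and 90 min, 2527 and 1435 for 90 over 6 min in *def1Δ* and WT cells, 624 for the interaction, and 674, 596 and 307 in input RNA. The block left each count of glycogen genes as it was. The numbers did not pair the samples (correlation of deviations -0.03 in total RNA, -0.15 to 0.25 in labeled RNA, -0.17 to 0.39 in input RNA). No paired analysis was possible for footprints and translational efficiency because the footprint columns carry no sample number. *GLG1* had 18 to 54 counts per *def1Δ* or WT footprint column and *GPH1* 42 to 283 counts per WT input library.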
